A study of Homo sapiens with 6 samples.

Results

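The genes described here encode ion channels and their close partners, as measured by RNA sequencing in the lung cancer line HCC827 and in HCC827_Er. They were taken from the deposited gene table as every listed protein-coding gene whose symbol starts with KCN, SCN, CACN, CLCN, CLIC, ANO and a digit, TRPC, TRPM, TRPV, P2RX, GABR, GRI, ASIC or HCN, together with CFTR. This gave 70 of the 6641 listed genes, after 2 genes named as antisense or not annotated as protein-coding were left out. By ion type they were 20 potassium, 10 sodium, 10 calcium and 10 chloride channel genes, 8 TRP and HCN cation channel genes and 12 genes of the ligand-gated families. HCC827 is an established human lung adenocarcinoma line with an activating mutation of the EGFR receptor. HCC827_Er is labelled as a line of its own, and the series title sets resistant beside parental cells. Each line had 3 libraries, no treatment or time is given for either, and whether HCC827_Er is 1 clone is not stated. The stated purpose was to learn which genes histone Kcr controls in resistance to EGFR inhibitors.

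Ion channels are membrane proteins that let ions pass down their electrochemical gradient through a pore. Potassium channels set the resting potential, calcium channels and TRP channels admit calcium as a signal, and chloride channels carry anions for secretion and for control of cell volume. In airway and alveolar epithelium, sodium enters through the epithelial sodium channel ENaC at the apical side and is pumped out by the sodium pump at the basal side, while chloride leaves through channels such as CFTR and ANO1. Many channels are built from several subunits, so a transcript alone does not tell whether a working channel is present.

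The values were FPKM, fragments scaled by transcript length and library size, so depth and counting error were unknown. All listed genes together summed to between 184633 and 224211 FPKM per library. Across genes, which are no replicates, r between libraries was 0.991 to 0.994 within a line and 0.806 to 0.809 between lines. The labels do not say that replicates were grown apart, so each p-value reflects the spread among these 6 libraries, which may be technical. The deposited list holds mainly genes that differ between the lines: for 96.1% of all 6641 listed genes no library of one line reached the range of the other (50.7% with all HCC827_Er libraries above, 45.4% with all below). Channel genes outside the list, among them KCNQ1, KCNK1, SCNN1B, SCNN1G, CLIC1, CLCN3, TRPM4 and P2RX4, were not analysed here.

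Most of the channel genes were low. In 31 of the 70 the mean was under 1 FPKM in both lines, in 27 the higher mean was between 1 and 10 FPKM, and 12 reached 10 FPKM. At 1 FPKM or more in at least 3 of the 6 libraries, 36 of the 70 could be tested, and 12 of these passed through one line only, in which they were high. Of the 36, 11 were called higher in HCC827_Er and 6 lower, by limma's test with an adjusted p below 0.05 plus a minimum difference of 1 on the log2(FPKM + 1) scale, which is 2-fold in FPKM + 1 and more than that in FPKM itself for low genes. These are 30.6% and 16.7% of the tested members, against 24.7% called higher and 19.7% called lower among all 5276 tested genes, so the shares lay near the background. The same 24.7% and 19.7% are the background for each count of calls by ion type or gene list below. All 36 had an adjusted p below 0.05, as did 98.3% of all tested genes, so the size of a difference and not its p decided a call. In bulk RNA, fewer cells of a kind and less RNA per cell cannot be told apart. The median log2 difference was 0.72 over the tested members and 0.43 over all tested genes, and 0.16 and 0.30 over the listed ones. The split of higher and lower calls depended on scaling. Median-ratio rescaling moved the tested genes by a median of -0.30 and gave 9 higher and 9 lower members (902 and 1671 of all genes). Rescaling to equal sums moved them by a median of 0.21 and gave 17 and 5 (1825 and 794). No channel gene changed direction under either rescaling. For 68 of the 70, or 97.1%, the ranges of the lines stood apart, 38 above and 30 below in HCC827_Er, beside the 96.1% given above. GABRR3 was among those that overlapped.

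**Figure D1:**
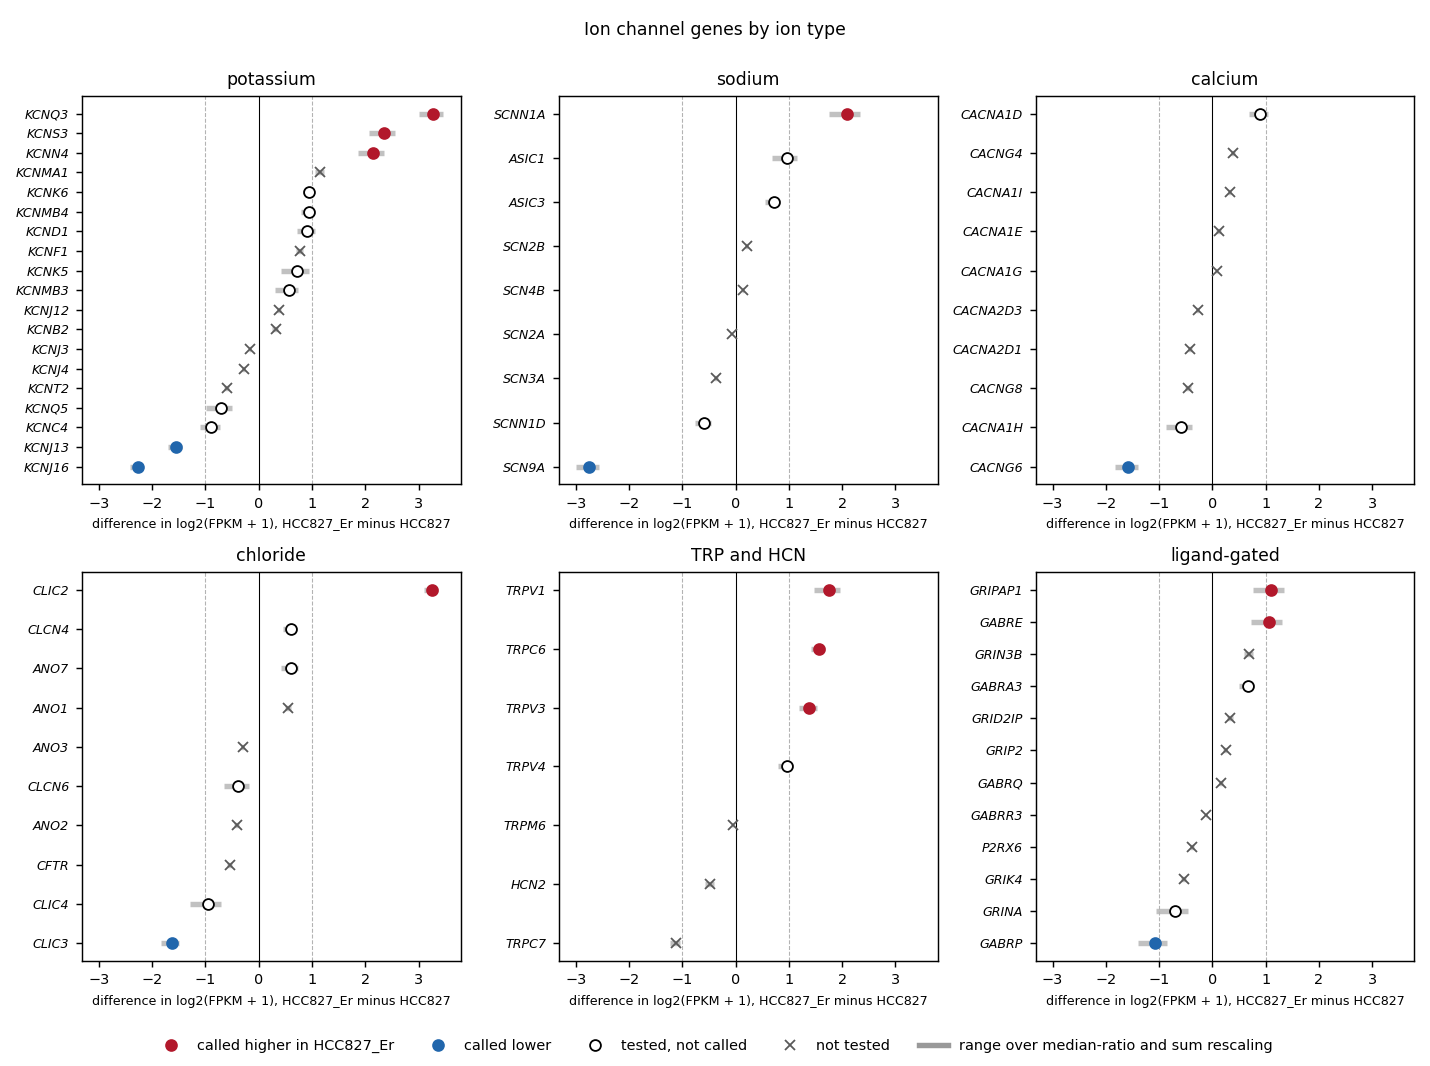
Difference between HCC827_Er and HCC827 for 67 of the 70 ion channel genes, by ion type. Points are means over 3 libraries per line on the log2(FPKM + 1) scale, dashed lines mark a difference of 1 and grey bars span the values under the 2 rescalings; every ion type has genes on both sides of 0, from KCNQ3 at 3.28 to SCN9A at -2.74.

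The start regions of 5 called genes are shown to set side by side channel genes called in opposite directions, with CpG-poor and CpG-rich starts. Each is the RefSeq window on GRCh38.p14 from 250 bases before to 50 after the gene's start, on the gene's strand. Capitals mark letters of any of 6 motifs searched on both strands: TGANTCA for the factor AP-1, CAGGTG for the repressors ZEB and SNAI, GGAATG for TEAD factors, AACCNGTT for the epithelial GRHL factors, GGGCGG for the box bound by SP1, called the GC box, and TATAAA for the core promoter element called the TATA box. Matches of different motifs were counted apart even where they overlapped. KCNN4, CLIC2 and TRPV3 were called higher, SCN9A and KCNJ13 lower.
KCNN4 (chr19:43780924-43781223, minus strand): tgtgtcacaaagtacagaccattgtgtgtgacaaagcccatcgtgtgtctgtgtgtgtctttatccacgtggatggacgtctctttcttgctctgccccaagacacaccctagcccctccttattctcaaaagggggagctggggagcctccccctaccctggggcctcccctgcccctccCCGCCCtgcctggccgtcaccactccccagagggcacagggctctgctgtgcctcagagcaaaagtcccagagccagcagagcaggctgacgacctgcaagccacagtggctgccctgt
CLIC2 (chrX:155334565-155334864, minus strand): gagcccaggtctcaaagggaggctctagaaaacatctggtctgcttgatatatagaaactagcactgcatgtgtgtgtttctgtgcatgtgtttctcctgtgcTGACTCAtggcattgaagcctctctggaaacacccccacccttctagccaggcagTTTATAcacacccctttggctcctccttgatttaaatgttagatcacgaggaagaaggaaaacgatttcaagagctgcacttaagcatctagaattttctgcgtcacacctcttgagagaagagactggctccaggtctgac
TRPV3 (chr17:3557763-3558062, minus strand): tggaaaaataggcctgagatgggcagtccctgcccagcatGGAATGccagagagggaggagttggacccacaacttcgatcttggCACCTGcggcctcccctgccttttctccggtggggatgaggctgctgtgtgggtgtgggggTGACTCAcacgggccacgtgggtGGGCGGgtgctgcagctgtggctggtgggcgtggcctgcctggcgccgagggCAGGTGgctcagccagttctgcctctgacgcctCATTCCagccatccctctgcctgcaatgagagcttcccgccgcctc
SCN9A (chr2:166375895-166376194, minus strand): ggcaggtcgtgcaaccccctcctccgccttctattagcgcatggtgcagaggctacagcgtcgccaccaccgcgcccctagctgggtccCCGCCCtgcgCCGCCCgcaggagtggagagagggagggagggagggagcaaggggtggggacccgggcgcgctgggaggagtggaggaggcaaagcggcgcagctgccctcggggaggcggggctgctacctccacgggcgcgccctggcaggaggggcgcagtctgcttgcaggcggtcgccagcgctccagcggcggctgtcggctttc
KCNJ13 (chr2:232776516-232776815, minus strand): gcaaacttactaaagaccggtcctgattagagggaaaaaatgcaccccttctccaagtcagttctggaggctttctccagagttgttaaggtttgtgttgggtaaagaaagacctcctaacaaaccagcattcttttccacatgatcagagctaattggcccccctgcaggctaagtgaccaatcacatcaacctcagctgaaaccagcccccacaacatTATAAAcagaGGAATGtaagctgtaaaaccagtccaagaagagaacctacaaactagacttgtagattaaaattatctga
The SCN9A window held 28 CpG pairs at 73.3% GC, whereas that of KCNJ13 held 1 at 43.0% and that of CLIC2 held 3 at 47.0%. The KCNN4 window had 6 CpG pairs and the TRPV3 window 12. TRPV3 held 1 AP-1 match, 2 CAGGTG matches, 2 TEAD matches and 1 GC box. CLIC2 held 1 AP-1 match and 1 TATA box, KCNJ13 held 1 TEAD match and 1 TATA box, SCN9A held 2 GC boxes and KCNN4 1 GC box. Windows were found for 50 of the 70 channel genes, 68 windows in all. Of these 14.7% held the AP-1 letters, 20.6% CAGGTG, 11.8% the TEAD letters, 4.41% the GRHL letters, 55.9% the GC box and 11.8% the TATA box. Of all 35116 windows the shares were 7.71%, 20.6%, 14%, 1.73%, 45% and 11.5% in the same order. Such matches are a description of the letters and not binding sites.

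Among potassium channel genes, 4 of 13 tested were called higher and 2 lower (4 and 3 with median ratios, 7 and 2 with equal sums). KCNQ3 (ENSG00000184156, chromosome 8, 132120858-132481019 on GRCh38), a subunit of the M-type channel that steadies the membrane potential, stood at 1.14, 1.59 and 1.36 FPKM in the HCC827 libraries and at 21.7, 21.9 and 21.9 FPKM in HCC827_Er. The HCC827_Er libraries were all far above and nearly equal, and the mean was 16.0-fold higher (log2 difference 3.28, SE 0.11, limma adjusted p = 1.66e-08). KCNS3 (ENSG00000170745, chromosome 2, 17877847-18361616), a silent subunit that changes the gating of Kv2 channels, stood at 3.32, 2.80 and 2.44 against 18.51, 20.02 and 17.49 FPKM. It was 6.54-fold higher (log2 difference 2.36, SE 0.12, adjusted p = 1.76e-07), while KCNB2, a Kv2 pore subunit with which it can assemble, stayed under 1 FPKM at 0.110 and 0.383. KCNN4 (ENSG00000104783, chromosome 19, 43766533-43781261), the calcium-activated channel of intermediate conductance in epithelia and lymphocytes, stood at 2.89, 2.98 and 1.93 against 13.4, 15.5 and 15.4 FPKM. It was 5.68-fold higher (log2 difference 2.14, SE 0.14, adjusted p = 1.09e-06). In none of KCNQ3, KCNS3 and KCNN4 did a library of one line reach the range of the other, as in 96.1% of all listed genes.

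The potassium channel genes called lower were inward rectifiers, channels that pass current more readily into the cell. KCNJ16 (ENSG00000153822, chromosome 17, 70053429-70135608), which pairs with other Kir subunits in kidney and brain, stood at 3.73, 3.28 and 4.57 FPKM in HCC827 and was listed at 0 in all 3 HCC827_Er libraries (log2 difference -2.27, SE 0.12, limma adjusted p = 2.95e-07). KCNJ13 (ENSG00000115474, chromosome 2, 232766464-232776568), a rectifier of transporting epithelia, stood at 2.24, 3.03 and 2.37 against 0.110, 0.300 and 0.220 FPKM (log2 difference -1.55, SE 0.12, adjusted p = 3.60e-06). Both passed the 1 FPKM minimum through HCC827 alone. KCNJ3 and KCNJ4 were also below, with HCC827 means of 0.120 and 0.217 FPKM, whereas KCNJ12 was above, at 0.0100 and 0.330 FPKM. The 5 listed rectifiers thus did not all have the same sign.

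Members of one potassium channel family could lie on opposite sides. KCNQ5, which can form M-type channels with KCNQ3, stood at 6.20, 5.29 and 6.94 FPKM in HCC827 and 3.42, 2.92 and 3.74 FPKM in HCC827_Er, a difference of -0.71 that was under 2-fold. KCNC4, a voltage-gated channel of the Kv3 type, stood at 3.02 and 1.18 FPKM, with a difference of -0.89 that was called lower without HCC827_Er replicate 1 (-1.01). The genes of the large-conductance calcium-activated channel were all above in HCC827_Er. Its pore gene KCNMA1 (chromosome 10, 76869601-77638369) was listed at 0 in every HCC827 library and at 1.06, 1.82 and 0.880 FPKM in HCC827_Er, and could be tested only without the 1 FPKM minimum, where it was called higher (log2 difference 1.15, limma adjusted p = 0.000123). Its auxiliary genes KCNMB4 and KCNMB3 stood at 0.407 and 1.71 FPKM and at 2.13 and 3.65 FPKM. KCNMB4 had a difference of 0.95 and was called higher without HCC827 replicate 1 (1.05) or HCC827_Er replicate 2 (1.00).

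The tandem-pore genes KCNK5 and KCNK6, which carry background potassium current, stood at 6.48 ± 0.0814 against 11.3 ± 0.671 FPKM and at 0.210 ± 0.0265 against 1.34 ± 0.0346 FPKM (SD, n = 3). Their log2 differences of 0.72 and 0.95 were below the minimum of 1 on the log2(FPKM + 1) scale, although the FPKM of KCNK6 differed 6.38-fold, since that scale shrinks differences of low genes. The KCNK6 difference was 1.045 with rescaling to equal sums, past that minimum, and 0.82 with median ratios. KCND1, a Kv4 channel, stood at 0.797 ± 0.250 and 2.35 ± 0.136 FPKM, with a difference of 0.91 that was called higher without HCC827 replicate 2 (1.00). KCNF1, a further silent subunit, was listed at 0 in all HCC827 libraries and at 0.60, 0.88 and 0.65 FPKM in HCC827_Er, and the sodium-activated KCNT2 at 0.470, 0.430 and 0.640 FPKM in HCC827 and at 0 in HCC827_Er. Of the 20 potassium channel genes, 13 were above in HCC827_Er and 7 below, without overlap in any, beside 96.1% of all listed genes without overlap.

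**Figure D2:**
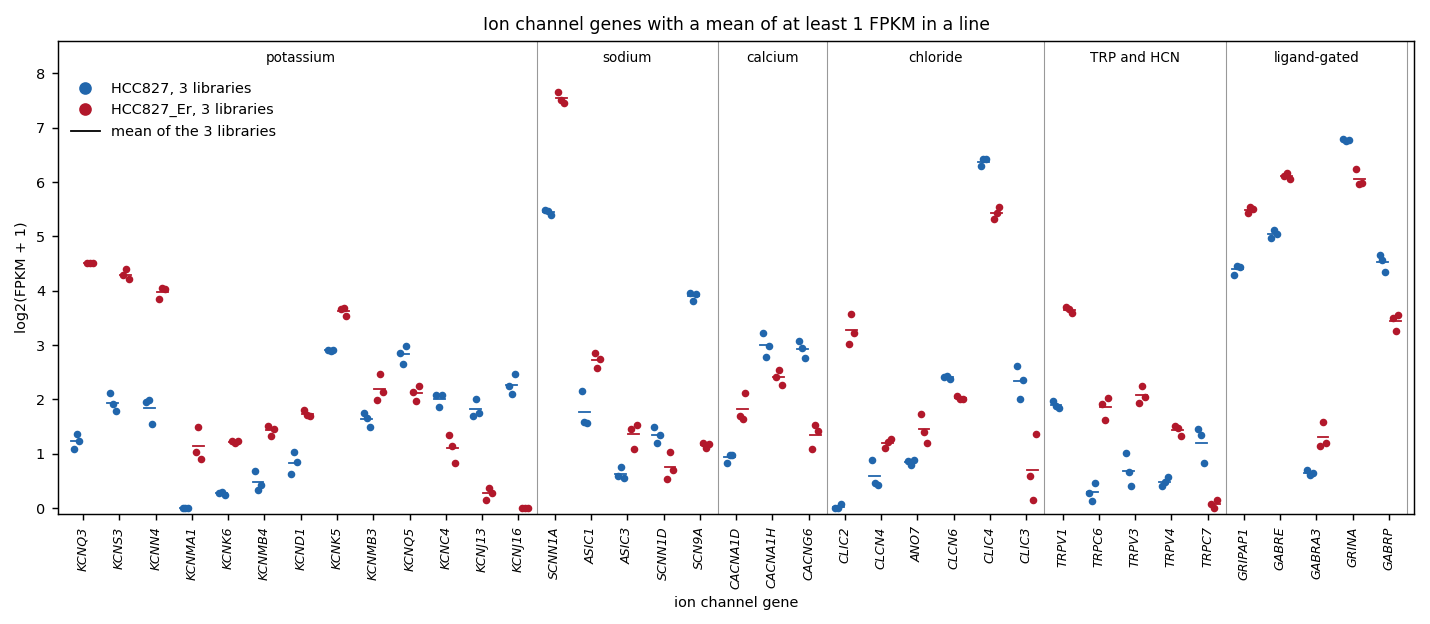
Value of each library on the log2(FPKM + 1) scale for 37 ion channel genes with a mean of at least 1 FPKM in a line, grouped by ion type, with the mean of the 3 libraries as a line. SCNN1A is the most abundant member in HCC827_Er at 185 FPKM and GRINA in HCC827 at 108 FPKM. The libraries of the lines lie apart for each gene shown, as for 96.1% of all listed genes.

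Among sodium channel genes, the ENaC subunit gene SCNN1A was called higher and the voltage-gated channel gene SCN9A lower of 5 tested. SCNN1A (ENSG00000111319, chromosome 12, 6346843-6377730), the alpha subunit on which ENaC assembly depends, stood at 43.8, 43.1 and 40.8 FPKM in HCC827 and at 199.9, 181 and 175 FPKM in HCC827_Er. It was 4.36-fold higher (log2 difference 2.10, SE 0.064, limma adjusted p = 1.16e-08) and had the highest level of the 70 genes in HCC827_Er. Its exons overlap those of LTBR on the other strand, and LTBR stood lower, at 236 and 152 FPKM. The delta subunit gene SCNN1D stood at 1.56 ± 0.250 and 0.713 ± 0.304 FPKM (SD, n = 3), on the other side. SCN9A (ENSG00000169432, chromosome 2, 166195185-166376001), the sodium channel of pain-sensing neurons, stood at 14.6, 13.1 and 14.3 FPKM in HCC827 and at 1.30, 1.15 and 1.27 FPKM in HCC827_Er. It was 11.3-fold lower (log2 difference -2.74, SE 0.10, limma adjusted p = 3.57e-08), the most negative difference among the tested channel genes on the log2(FPKM + 1) scale.

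The other voltage-gated sodium channel genes were low. SCN2A and SCN3A, which lie beside SCN9A, were listed at 0 in all HCC827_Er libraries and had means of 0.0467 and 0.283 FPKM in HCC827. The auxiliary genes SCN2B and SCN4B stood above in HCC827_Er, at no more than 0.250 FPKM in any library. The acid-sensing channel genes ASIC1 and ASIC3 were both above: ASIC1 stood at 3.44, 2.01 and 1.96 against 6.23, 5.01 and 5.68 FPKM and ASIC3 at 0.557 and 1.58 FPKM. The ASIC1 difference of 0.96 was called higher without HCC827 replicate 1 (1.15) or HCC827_Er replicate 2 (1.03). Of the 10 sodium channel genes, 5 were above and 5 below.

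Regulators of sodium and chloride transport were given by a list of 35 names, of which 17 were in the table and 14 were tested. Of these, 5 were called higher and 2 lower (4 and 3 with median ratios, 6 and 2 with equal sums). The shares were 35.7% and 14.3%, beside 24.7% and 19.7% of all tested genes. The median log2 difference was 0.56 beside 0.43 over all tested genes. Among those higher were 4 membrane serine protease genes whose products cleave and activate ENaC, as well as other proteins. ST14, which encodes matriptase, stood at 16.72, 15.02 and 16.01 FPKM in HCC827, with a mean of 124 ± 9.79 FPKM in HCC827_Er (log2 difference 2.89, SE 0.076, limma adjusted p = 5.44e-09). PRSS8, which encodes prostasin, stood at 3.66, 3.11 and 3.51 against 37.7, 33.8 and 34.0 FPKM (log2 difference 3.03, SE 0.093, adjusted p = 1.16e-08). TMPRSS4 rose from 0.210 ± 0.195 to 23.3 ± 1.43 FPKM and TMPRSS2 from 0.0267 ± 0.0306 to 4.31 ± 0.0351 FPKM. TMPRSS4 and TMPRSS2 passed the 1 FPKM minimum through HCC827_Er alone, in which they were high, so they could not have been called lower. The fifth, the scaffold gene NHERF2, was not called with median-ratio rescaling. The 2 called lower were PDZK1, a scaffold of apical transporters, from 62.9 ± 1.06 to 1.71 ± 0.608 FPKM, and the bicarbonate cotransporter gene SLC4A4, from 4.90 ± 0.377 to 1.04 ± 0.121 FPKM. WNK4, a kinase that regulates both transport routes, did not pass the test (adjusted p = 0.124).

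Of 13 sodium pump names, 6 were listed and 5 tested, with 1 called higher and 1 lower (1 and 1 with median ratios, 3 and 1 with equal sums). They were FXYD genes, whose small products bind the pump and tune its affinity. FXYD2, the gamma subunit of renal pumps, fell from 92.1 ± 3.82 to 2.35 ± 1.28 FPKM (log2 difference -4.86, SE 0.22, limma adjusted p = 1.18e-07), while FXYD3 was listed at 0 in all HCC827 libraries and at 10.6, 8.84 and 7.04 FPKM in HCC827_Er. FXYD3 thus passed the 1 FPKM minimum through HCC827_Er alone.

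**Figure D3:**
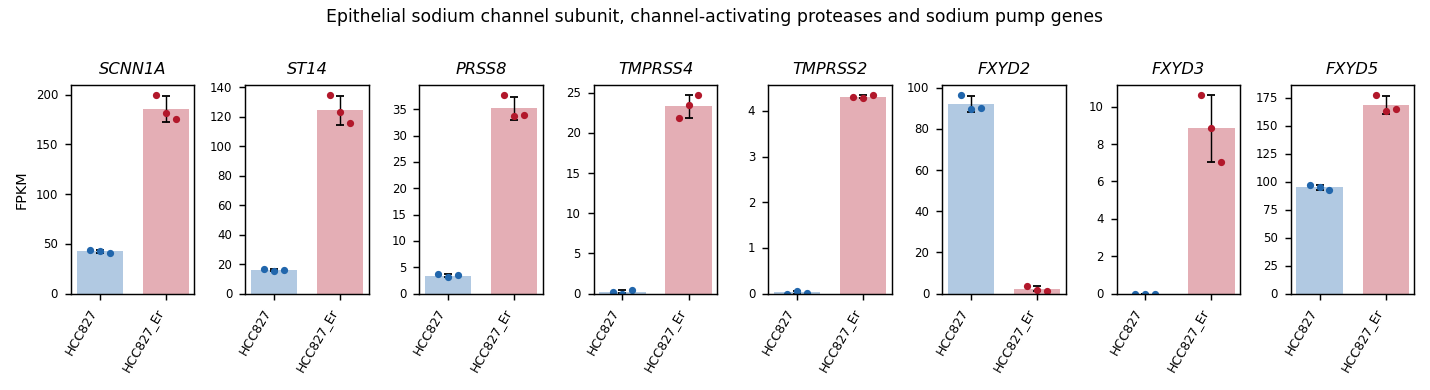
FPKM of SCNN1A, of 4 genes of proteases that can activate ENaC, and of 3 sodium pump genes in the 3 libraries of each line; bars are means, error bars SDs and points libraries, each panel with its own axis from 0. SCNN1A and the protease genes stand higher in HCC827_Er, FXYD2 stands at 92.1 against 2.35 FPKM, and FXYD3 is listed at 0 in HCC827.

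Of 3 tested calcium channel genes none was called higher and 1 was called lower. CACNG6 (ENSG00000130433, chromosome 19, 53992288-54012669), an auxiliary gamma subunit of skeletal muscle type channels, stood at 7.41, 6.72 and 5.77 FPKM in HCC827 and 1.12, 1.88 and 1.66 FPKM in HCC827_Er. It was 4.27-fold lower (log2 difference -1.59, SE 0.15, limma adjusted p = 1.03e-05), and its neighbour CACNG8 lay below as well, at 0.487 and 0.0867 FPKM. The tested pore genes differed by less than 1 on the log2(FPKM + 1) scale: the T-type channel CACNA1H stood at 8.33, 5.91 and 6.87 against 4.35, 4.84 and 3.80 FPKM, and the L-type channel CACNA1D at 0.790, 0.970 and 0.980 against 2.24, 2.11 and 3.37 FPKM. CACNA1H lay below and CACNA1D above, each without overlap, and CACNA1D was called higher with rescaling to equal sums (1.03). TPSG1 on the other strand shares exon positions with CACNA1H and also lay below, at 1.37 and 0.183 FPKM. The other 6 genes were under 1 FPKM in every library: CACNA1E, CACNA1G, CACNA1I and CACNG4 lay above in HCC827_Er, and CACNA2D1 and CACNA2D3, which carry pores to the membrane, lay below. Together 5 calcium channel genes were above and 5 below.

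Genes that handle calcium stores were given by a second list, of which 10 of 23 names were in the table and 9 tested. Of these 3 were called higher and 2 lower (1 and 3 with median ratios, 3 and 2 with equal sums). The shares were 33.3% and 22.2%, beside 24.7% and 19.7% of all tested genes, and the median log2 difference was -0.55. ATP2C2, a calcium pump of the Golgi, rose from 2.63 ± 1.27 to 13.6 ± 0.671 FPKM, while the store release channel gene ITPR2 fell from 17.9 ± 2.55 to 3.85 ± 0.108 FPKM and RYR2 from 1.48 ± 0.229 to 0.140 ± 0.0624 FPKM. The others called higher, STIM2 and RYR1, were not called with median-ratio rescaling, nor was STIM2 without HCC827_Er replicate 2 (0.997). STIM2, a sensor of store calcium, stood at 4.38 and 10.2 FPKM, and RYR1 at 0.647 and 2.51 FPKM. RYR1 passed the 1 FPKM minimum through HCC827_Er alone and RYR2 through HCC827 alone.

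Of 6 tested chloride channel genes, CLIC2 was called higher and CLIC3 lower (1 and 2 with median ratios, 1 and 1 with equal sums). The CLIC proteins occur in soluble and membrane forms, and their part as channels in cells is debated. CLIC2 (ENSG00000155962, chromosome X, 155276211-155334657) was listed at 0, 0 and 0.05 FPKM in HCC827 and at 7.08, 10.9 and 8.36 FPKM in HCC827_Er (log2 difference 3.25, SE 0.15, limma adjusted p = 1.32e-07). It passed the 1 FPKM minimum through HCC827_Er alone. CLIC3 (ENSG00000169583, chromosome 9, 136994635-136996803) stood at 5.14, 3.03 and 4.16 against 0.500, 0.110 and 1.56 FPKM (log2 difference -1.63, SE 0.29, adjusted p = 0.000525), with the largest SE of the 17 called genes. CLIC4 (chromosome 1, 24745357-24844324), second in HCC827 by level among the 70 genes, stood at 77.4, 84.4 and 84.8 against 39.0, 42.3 and 45.6 FPKM. Its difference of -0.94 was just under 2-fold, and past it after median-ratio rescaling (-1.28).

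The endosomal exchanger genes CLCN4 and CLCN6 stood at 0.520 ± 0.278 against 1.30 ± 0.137 FPKM and at 4.31 ± 0.10 against 3.07 ± 0.115 FPKM (SD, n = 3), under 2-fold on the log2(FPKM + 1) scale. The secretory channels of epithelia were under 1 FPKM in every library. CFTR, the chloride channel mutated in cystic fibrosis, stood at 0.190, 0.620 and 0.640 FPKM in HCC827 and at 0, 0 and 0.0400 FPKM in HCC827_Er, all below. ANO1, the calcium-activated chloride channel, stood at 0.03, 0.02 and 0.05 against 0.640, 0.620 and 0.320 FPKM, all above. Neither was tested with the 1 FPKM minimum. ANO7, of the same family, stood at 0.830, 0.730 and 0.840 against 2.34, 1.65 and 1.31 FPKM and was tested but not called, while ANO2 and ANO3 lay below in HCC827_Er, ANO3 at 0 in all 3 of its libraries.

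Of the TRP and HCN cation channel genes, calls were 3 higher of 4 tested, with no gene lower (3 with median ratios, 4 with equal sums). TRPV1 (ENSG00000196689, chromosome 17, 3565444-3609411), the channel opened by capsaicin and heat, stood at 2.93, 2.70 and 2.58 FPKM in HCC827 and 12.0, 11.7 and 11.1 FPKM in HCC827_Er. It was 4.23-fold higher (log2 difference 1.75, SE 0.10, limma adjusted p = 4.35e-07). Its exons overlap those of SHPK on the same strand, and SHPK stood at 9.43 and 20.2 FPKM and was called higher as well, so reads may be shared. TRPV3 (ENSG00000167723, chromosome 17, 3510502-3557995), the warmth-activated channel of keratinocytes, stood at 1.02, 0.580 and 0.320 against 2.83, 3.74 and 3.11 FPKM (log2 difference 1.38, SE 0.17, adjusted p = 5.15e-05). The TRPV3 exons overlap those of SPATA22 on the same strand, which was not analysed here. TRPV4, opened by cell swelling and present in airway epithelium, stood at 0.320, 0.390 and 0.480 against 1.86, 1.79 and 1.51 FPKM. Its difference of 0.96 was called higher without HCC827 replicate 3 (1.00) or HCC827_Er replicate 3 (1.02). All 3 listed TRPV genes lay above without overlap, as did 50.7% of all listed genes.

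The TRPC genes, whose channels open after receptor signals through phospholipase C, did not share a direction. TRPC6 (ENSG00000137672, chromosome 11, 101451564-101872562) stood at 0.21, 0.10 and 0.38 FPKM in HCC827 and 2.79, 2.09 and 3.07 FPKM in HCC827_Er (log2 difference 1.57, SE 0.14, limma adjusted p = 7.58e-06), and passed the 1 FPKM minimum through HCC827_Er alone. TRPC7, of the same subgroup, stood at 1.73, 1.53 and 0.770 against 0.0600, 0 and 0.110 FPKM. It was tested only without that minimum, where it was called lower (log2 difference -1.13, adjusted p = 0.000235). TRPM6 and HCN2, a channel of pacemaker current, lay below in HCC827_Er at under 1 FPKM in every library.

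In the ligand-gated families, 2 of 5 tested genes were called higher and 1 lower (0 and 2 with median ratios, 2 and 0 with equal sums). GABRE (ENSG00000102287, chromosome X, 151953124-151974680), the epsilon subunit of GABA receptors, stood at 30.2, 33.8 and 32.2 against 67.9, 71.2 and 65.4 FPKM (log2 difference 1.07, SE 0.067, limma adjusted p = 7.80e-07; 0.73 and not called with median-ratio rescaling). GABRP (ENSG00000094755, chromosome 5, 170763350-170814047), the pi subunit of GABA receptors outside the brain, stood at 24.1, 22.7 and 19.4 against 10.3, 8.53 and 10.8 FPKM (log2 difference -1.09, SE 0.11, adjusted p = 2.08e-05). GABRE thus lay above and GABRP below, both by about the 2-fold minimum. GABRP was not called with rescaling to equal sums (-0.85) or without HCC827_Er replicate 2 (-0.99). Its exons overlap an unnamed antisense gene (ENSG00000253348) that fell from 142 to 37.7 FPKM, and whether the counting used strand is not given. The same limit holds for the called genes KCNJ13, KCNJ16 and SCN9A, whose exons overlap GIGYF2, an unnamed antisense gene and SCN1A-AS1 on the other strand, which were not analysed here. Of the other GABA receptor genes, GABRA3 stood at 0.62, 0.53 and 0.56 against 1.20, 2.00 and 1.31 FPKM, GABRQ at 0.0533 and 0.183 FPKM, and GABRR3 overlapped between the lines.

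GRIPAP1 (ENSG00000068400, chromosome X, 48973720-49002264) entered by its symbol but encodes a partner of the glutamate receptor scaffold GRIP1 in endosomes. It stood at 18.5, 21.0 and 20.7 against 42.2, 45.7 and 44.1 FPKM (log2 difference 1.10, SE 0.073, limma adjusted p = 1.22e-06; 0.76 and not called with median-ratio rescaling). GRINA, also no receptor subunit, stood at 109.5, 107 and 108 against 74.3, 61.3 and 62.0 FPKM, a difference of -0.71, which median-ratio rescaling took past 2-fold (-1.05). The receptor subunit genes GRIN3B and GRIK4 were low and lay on opposite sides, GRIN3B at 0.153 and 0.877 FPKM and GRIK4 at 0.473 and 0.00667 FPKM. P2RX6, the only listed ATP-gated channel gene, stood at 0.317 and 0.0100 FPKM, and the overlapping THAP7-AS1 at 6.80 and 3.64 FPKM. The scaffold genes GRIP2 and GRID2IP lay above in HCC827_Er at under 1 FPKM.

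At a pseudocount of 5 the calls of TRPC6, TRPV3, CACNG6, CLIC3, GRIPAP1, GABRE, GABRP, KCNJ13 and KCNJ16 ended, while KCNQ3, KCNS3, KCNN4, SCNN1A, SCN9A, CLIC2 and TRPV1 were called under every pseudocount, minimum, scaling, fit and left-out library tried.

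Channel genes outside the symbol rule were given by another list, with 19 of 44 names in the table and 15 tested. Of these 8 were called higher and 4 lower (6 and 4 with median ratios, 8 and 0 with equal sums). The shares were 53.3% and 26.7%, beside 24.7% and 19.7% of all tested genes. Of the genes called higher, TMEM63C passed the 1 FPKM minimum through HCC827_Er alone. The TMC genes, relatives of the mechanosensory channels of hair cells, were called higher in 3 of 4 listed cases, the exception being TMC7 (1.17 and 2.32 FPKM, log2 difference 0.60): TMC4 stood at 1.57, 0.790 and 1.37 against 19.7, 24.2 and 18.8 FPKM, TMC5 rose from 2.78 ± 0.603 to 31.9 ± 1.77 FPKM and TMC6 from 1.93 ± 0.110 to 14.8 ± 0.694 FPKM. The water channel gene AQP3 stood at 16.4 and 42.8 FPKM and was not called with median-ratio rescaling (0.998). PIEZO1, a mechanosensitive cation channel, fell from 260 ± 11.7 to 121 ± 16.7 FPKM, and PKD2, the polycystin channel of cilia, from 19.3 ± 1.38 to 8.01 ± 1.34 FPKM. All 4 lower calls ended with rescaling to equal sums. TRPA1, a relative of the TRPV channels, was listed at 0 in all HCC827_Er libraries and at 1.24, 0.05 and 0.81 FPKM in HCC827.

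Positions were read from GENCODE 29 on GRCh38. All 7 channel genes on chromosome X (CLIC2, CLCN4, GRIPAP1, GABRE, GABRA3, GABRQ and KCND1) lay above in HCC827_Er. The same held for 84.2% of the 279 listed protein-coding genes of chromosome X, as deposited and with either rescaling, against 52.9% of all 5241 listed protein-coding genes. Their median log2 difference was 0.82, so a higher value on chromosome X was common in this table. Of the 10 groups of channel genes within 2 Mb of each other, 6 had a single direction and 4 had both. SCN3A, SCN2A and SCN9A on chromosome 2 (165087522-166376001) all lay below, while 3 of the 4 other listed protein-coding genes within 2 Mb lay above. CACNG8 and CACNG6 lay below, with 11 of 16 such neighbours above. SCN4B and SCN2B lay above, with 14 of 20 neighbours below. TRPV3 and TRPV1 lay above, as did 11 of 15 neighbours, and GABRE, GABRA3 and GABRQ lay above, as did 21 of 24. KCND1 and GRIPAP1 lay above, with 15 of 16 neighbours.

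**Figure D4:**
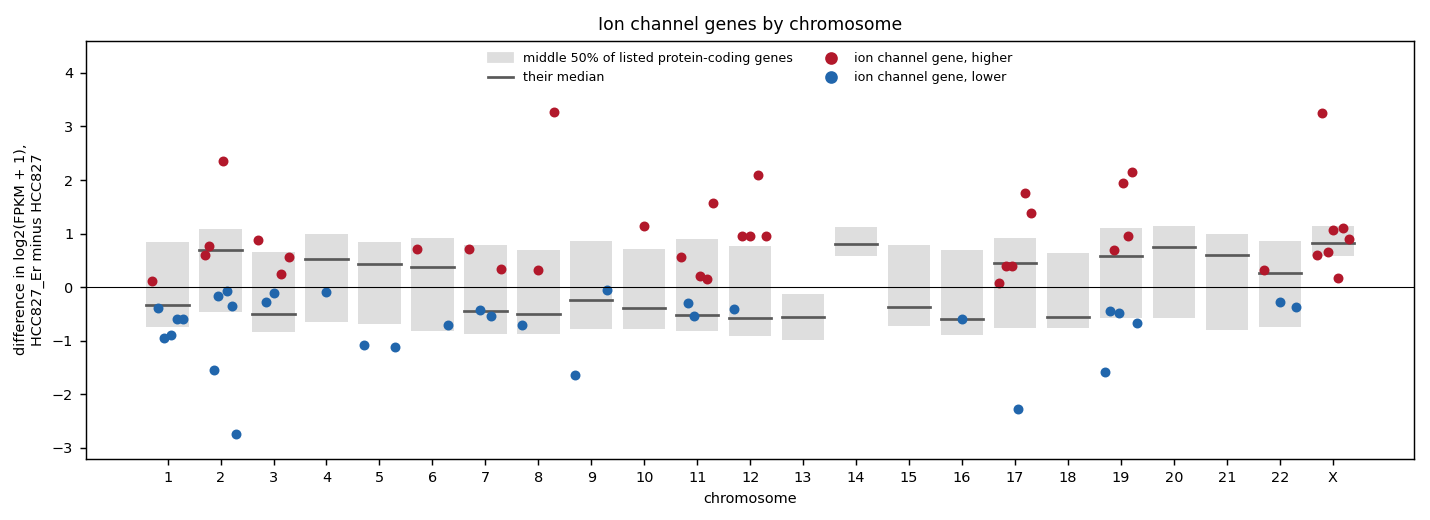
Difference in log2(FPKM + 1) between HCC827_Er and HCC827 for the 70 ion channel genes by chromosome (points), over the median (line) and middle 50% (grey bar) of the listed protein-coding genes of that chromosome. On chromosome X all 7 channel genes and most listed genes lie above 0; on chromosome 2 the lowest point is SCN9A at -2.74.

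Many of these channels are best known from nerve and muscle, so markers of those cells were read from the same libraries. Of 12 neuronal markers 2 were listed. TUBB3 stood at 222 and 87.6 FPKM and was called lower. MAP2 stood at 0.180 and 1.81 FPKM, passed the 1 FPKM minimum through HCC827_Er alone and was called higher. The summed level of the 2 was 215 to 227 FPKM in HCC827 and 80.9 to 98.2 FPKM in HCC827_Er. Of 10 muscle markers 4 were listed, summing to 1.89 to 2.29 and 0.540 to 0.720 FPKM. Most of the HCC827 sum was RYR2, given above with the calcium store genes, at 1.48 and 0.140 FPKM. DES was at 0 in all HCC827_Er libraries. In contrast, TTN (0.0833 and 0.183 FPKM) and MYH11 (0.117 and 0.28 FPKM, overlapping) had higher means in HCC827_Er. Of 8 leukocyte markers 5 were listed, with sums of 172 to 179 and 131 to 144 FPKM, mostly CD68. Of them 4 were called higher, CORO1A, LAPTM5, CD14 and CSF1R, beside 24.7% of all tested genes. All 4 passed the 1 FPKM minimum through HCC827_Er alone, in which they were high, so they could not have been called lower. CD68 stood lower, at 174 and 117 FPKM, and was not called. Of 8 fibroblast and endothelial markers 5 were listed, summing to 10.9 to 12.5 and 16.2 to 18.8 FPKM. They did not share a direction. COL1A1 stood at 0.75 and 10.1 FPKM and was called higher, and CDH5 stood at 0 and 0.61 FPKM. LUM (1.81 and 0.53 FPKM), COL3A1 (0.283 and 0 FPKM) and EGFL7 (9.07 and 6.61 FPKM) lay below in HCC827_Er. Epithelial markers were present in both lines: 8 of 10 were listed, summing to 2260 to 2348 FPKM in HCC827 and 3132 to 3268 FPKM in HCC827_Er. Beside the same 24.7% of all tested genes, 7 of the 8 were called higher, GRHL2 having passed the 1 FPKM minimum through HCC827_Er alone. KRT8, the exception, stood lower by less than 2-fold as deposited, and past 2-fold after median-ratio rescaling (-1.11). The part of these other genes in the channel differences was not tested.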

How the data were processed

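Libraries were made from total RNA of 2 cell lines, 3 each, with Illumina's TruSeq RNA kit; the labels' protocols speak of tissue samples, while the cell type label names cancer cells. The values the authors deposited are FPKM for each gene in each library. The submitters' processing notes list fastp, HISAT2 and StringTie, and the builds GRCh38.p14 and hg19, with no roles; for versions, annotation and the rule that put genes in the table, the answer is not given in the sources used here. Symbols were matched by identifier for 6636 of 6641 genes, and types and positions for 6353 from GENCODE 29 (GRCh38), which need not be the authors' annotation. FPKM was transformed to log2(FPKM + 1), a scale that makes fold changes of low genes look smaller. Genes with at least 1 FPKM in 3 libraries (5276) were fitted with limma 3.58.1 in R 4.3.3 (mean-variance trend, cell line as the only term), with Benjamini-Hochberg adjustment over all of them. An exact test of 3 against 3 libraries cannot go below a two-sided p of 0.1, so none is given. Simulated data for HCC827_Er against HCC827 had 4964 genes, of which 200 were given a change. The steps called 99% of genes changed by 1.5 (log2), 100% of those changed by 3 and 0.0210% of the unchanged. In the real libraries 98.3% of all tested genes had an adjusted p below 0.05, so the simulation does not resemble them in this. Its shares were not split by expression level and give no detection rate for channel genes of low FPKM. At FPKM of 10 or more, no pair of libraries of a line shared more than 4 identical values, so none was counted as a copy. The channel genes and gene lists were chosen with earlier results of these data known. Library values are given for called genes of at least 1 FPKM, up to 5 in each ion type and direction, and for fixed names (CFTR, ANO1, KCNN4, GABRP, TRPV4 and SCNN1A were in the table). Other genes shown by library were named after their values were seen. Alternatives were other pseudocounts, minima, scalings and fits, and each library left out. A few listed genes count in the totals but are not reported here by name.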

Additional observations from a re-analysis of the deposited data

How the results depend on the processing

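Each of the 36 tested channel genes kept its direction in the pseudocounts, minima, scalings, fits and left-out libraries in which it was tested. Counts of calls did not hold. At a pseudocount of 0.1, 21 channel genes were called higher (among them 7 potassium, 3 sodium, 1 calcium and 3 chloride) and 8 lower, among them 2 sodium channel genes. At a pseudocount of 5, 7 were called higher and 1 lower, with 1 TRP gene and 0 ligand-gated genes higher, and 0 potassium, 0 calcium, 0 chloride and 0 ligand-gated genes lower. With a minimum of 5 FPKM in 3 libraries, which tests 18 of the members, 9 were called higher, 1 of them a TRP gene. With that minimum 3 were called lower (0 potassium and 0 chloride). Without a minimum 1 TRP gene, TRPC7, was called lower. With rescaling to equal sums 17 were called higher, among them 7 potassium, 2 sodium and 1 calcium channel gene, and 0 ligand-gated genes lower. With median-ratio rescaling 0 ligand-gated genes were called higher and 2 lower, and 2 chloride channel genes lower. Leaving out each library in turn gave 1 to 2 sodium channel genes higher (2 without HCC827 replicate 1 or HCC827_Er replicate 2) and 0 to 1 ligand-gated genes lower (0 without HCC827_Er replicate 2). Quantile normalization and limma without trend kept all 17 calls.

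The replicate number as a block left 11 channel genes called higher and 6 lower, the same 17 genes. Same-numbered libraries of the lines deviated together with r of 0.106, -0.0219 and 0.0489 across genes, so the numbers were not taken to pair the samples. Depth is unknown in FPKM, so values under 1 FPKM carry an unknown counting error.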
